A study of Mus musculus with 30 samples.

Results

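RNA was compared between CD4 T cells labelled as a knockout of protein kinase A (PKA), called KO here, and control cells, called WT, after activation for 3 days with antibodies to CD3 and CD28. The comparison held the 3 KO and 3 WT activated RNA-seq libraries among the 30 samples of the study, and every row of the deposited count table that carried a gene symbol. Of 25865 symbols, 11980 passed a filter on low counts and were tested. The mouse cells came from spleen and lymph nodes, were enriched as naive CD4 T cells with an isolation kit and sorted before culture, and both genotypes received the same activation. The study also held naive and forskolin-treated cells and open-chromatin libraries, of which the naive RNA and the activated chromatin are used here beside the activated RNA. The labels name the deletion only as a PKA knockout and the other group only as control. The gene deleted, the deleter allele, the strain, age and sex of the mice, and whether each library stands for its own animal are not given in the sources used here, so the p-values measure the spread between these samples, which may be technical.

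PKA is the main kinase through which cyclic AMP acts. Hormones, adenosine, prostaglandins and acid stimulate receptors coupled to the G protein Gs, adenylyl cyclase then makes cyclic AMP, and its binding to the regulatory subunits frees the catalytic subunits, which phosphorylate channels, cytoskeletal proteins and transcription factors such as CREB. In T cells this pathway is best known as a brake on signalling from the antigen receptor. T cells activated through CD3 and CD28 grow, divide, switch to glycolysis, remodel their actin and replace much of the surface that naive cells carry.

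Levels are given in CPM, counts scaled to a common effective library size of 1000000 and not corrected for gene length, so they compare libraries for 1 gene and never 1 gene with another. Differences are log2 fold changes of KO minus WT from edgeR's quasi-likelihood fit, so that a negative value is lower in KO. There were n = 3 libraries per genotype throughout. The test returns no standard error (SE), so the value after ± of a log2 fold change is an approximate SE. It was taken as the absolute log2 fold change divided by the square root of the test's F statistic. A bare number in brackets after a gene is its log2 fold change. A gene is called lower or higher where its Benjamini-Hochberg adjusted p over all tested genes was under 0.05. In the activated cells 1083 genes were lower in KO (9.04% of those tested) and 706 were higher (5.89%), 14.9% in all. In the naive cells of the same table, tested the same way, 14 genes were lower and 15 were higher (0.242%). Most of the differences in activated cells were under 1 on the log2 scale: the median was -0.51 among the genes called lower and 0.54 among those called higher, and 259 of the first and 177 of the second reached an absolute log2 fold change of 1. At an absolute value of 2 there were 85 lower and 29 higher genes, and at 3 there were 40 and 5. The 3 KO libraries lay wholly below or wholly above the 3 WT libraries for 1074 of the lower and 699 of the higher genes, which reads against 19.7% and 18.9% of all tested genes lying wholly below and wholly above. The split between directions moved with the scaling: upper-quartile scaling called 843 lower and 987 higher genes, so that 46.1% of the calls were lower in place of 60.5%. The replicate 1 libraries of the genotypes deviated together, and for replicates 2 and 3 the values did not match libraries by number. The main fit takes no account of the replicate number. The fit of the 6 activated libraries alone with the replicate number as a block called 2132 lower and 1776 higher genes.

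The 6 libraries held between 10285730 and 11950488 counts, at which 3 counts correspond to 0.236 to 0.278 CPM, and pairs of replicates correlated at 0.987 to 0.9945 over log2 CPM. In each genotype the replicate 1 library carried Y-linked RNA and almost none of the X-inactivation transcript, and replicates 2 and 3 carried the reverse, so this split was balanced between the genotypes. The sum of 10 interferon-stimulated genes was 938, 351 and 262 CPM in the WT libraries and 503, 214 and 247 CPM in the KO libraries. The replicate 1 library was the highest of both genotypes, in a list of genes written after this pattern had been seen. Without both replicate 1 libraries, 704 genes were lower and 380 higher. All 14 CD4 T cell markers were detected, and 5 of them were called lower, Thy1, Cd5, Trac, Cd28 and Cd247, and none higher. Their sum was 4640 to 4710 CPM in WT and 3970 to 4030 CPM in KO. B cell markers summed to 105 to 129 CPM in WT and 163 to 191 CPM in KO, with 4 of 12 tested, Ighm and Cd79b called higher and Blk at 0 counts. Markers of myeloid and dendritic cells summed to 163 to 219 CPM in WT and 209 to 234 CPM in KO, with 4 of 17 tested, Ctss called higher, and 7 at 0 in all 6 libraries, among them Lyz2, Itgax, Cd14 and S100a8. Those of NK cells summed to 152 to 191 and 115 to 154 CPM, with 2 of 9 tested, Prf1 called lower, and Ncr1, Klra4, Klra8 and Klre1 at 0. The 8 markers of regulatory T cells, several of which any activated T cell carries, summed to 1390 to 1550 CPM in WT and 991 to 1050 CPM in KO, with Ctla4, Tnfrsf18 and Il2ra called lower and Izumo1r higher. Of 15 genes that rise with stress and dissociation, several of which antigen receptor signalling also induces, 5 were called lower, Fos, Jun, Junb, Ier3 and Dusp1 (33.3%, against 9.04% of all tested genes). Egr1 was the 1 called higher (6.67%, against 5.89%), a call lost in 9 of its 16 alternative fits (adjusted p up to 0.455). The sum of the 15 genes was 6360 to 6570 CPM in WT and 5770 to 5840 CPM in KO, without overlap. The part that these cells and stress genes take in the gene results was not tested, and in such bulk libraries fewer cells of a type and less RNA per cell cannot be told apart.

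The kinase itself was examined first. Prkaca, which encodes the catalytic subunit Cα, measured 41.98, 53.3 and 48.4 CPM in the WT libraries and 0.867, 1.38 and 0.926 CPM in the KO libraries (log2 fold change -5.49 ± 0.18, adjusted p = 6.05e-13). Its KO libraries all lay far below the WT libraries. Of the other PKA genes, Prkacb, the second catalytic subunit, did not pass the test, at 51.8, 54.7 and 55.4 CPM in WT and 56.1, 53.9 and 55.03 CPM in KO (log2 fold change 0.03 ± 0.07, adjusted p = 0.833). The regulatory subunits Prkar1a (-0.31) and Prkar2a (-0.30) and the related kinase Prkx (-0.41) were called slightly lower, calls that were lost in 5, 3 and 3 of their alternative fits. None of the 11 tested anchoring proteins of PKA, which tether the kinase to membranes and organelles, was called in either direction. Other fits called some of them: 2 were higher under upper-quartile scaling, 1 was lower and 1 higher in the activated libraries alone, and 2 were lower and 1 higher in those libraries with the replicate block.

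The 15 largest falls, Prkaca among them, were taken from genes of at least 5 CPM in WT with no overlap between the genotypes, leaving out gene models without a name and the genes of IL-12 signalling and of CREB. Separation of the 3 KO from the 3 WT libraries is thus a condition of the choice and not a finding about these genes. Gzmb (-6.26) was left out by that rule as a gene of IL-12 signalling, and Gng4, with no counts in KO, by its low level. Ramp3, the accessory protein that turns the calcitonin receptor-like receptor into a receptor for adrenomedullin, measured 38.1, 28.6 and 33.8 CPM in WT and 0.630, 0.0922 and 0.278 CPM in KO (log2 fold change -6.54 ± 0.25, adjusted p = 7.67e-12). Ntrk3, the neurotrophin-3 receptor, measured 17.8, 16.2 and 20.7 CPM in WT and 0, 0.369 and 0.926 CPM in KO (log2 fold change -5.44 ± 0.35, adjusted p = 3.87e-08). Perp, a membrane protein of cell junctions that p53 induces, measured 76.4, 66.4 and 77.9 CPM in WT and 2.92, 3.13 and 3.24 CPM in KO (log2 fold change -4.57 ± 0.16, adjusted p = 1.44e-11). In none of these genes did any KO library come near the WT range, and for Ramp3 and Ntrk3 the KO libraries lay around the level of 3 counts.

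CCN proteins are secreted and bind integrins and growth factors in the matrix, and the RNA of Ccn1 and Ccn4 was low in KO. Ccn1 measured 41.5, 53.9 and 59.9 CPM in WT and 1.18, 0.830 and 0.741 CPM in KO (log2 fold change -5.78 ± 0.22, adjusted p = 4.65e-11). Ccn4 measured 20.1, 26.3 and 33.2 CPM in WT and 1.34, 1.57 and 1.48 CPM in KO (log2 fold change -4.17 ± 0.24, adjusted p = 9.48e-09). The basement membrane protein Nid1 behaved alike, with 6.94, 6.38 and 8.70 CPM in WT and 0.315, 0.369 and 0.278 CPM in KO (log2 fold change -4.47 ± 0.32, adjusted p = 3.86e-07). For the 3 genes all KO libraries lay below all WT libraries, as the rule requires.

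Penk, the precursor of the enkephalin peptides, measured 45.97, 66.7 and 85.2 CPM in WT and 1.34, 2.49 and 7.50 CPM in KO (log2 fold change -4.16 ± 0.52, adjusted p = 0.00243). C1ql3, a secreted C1q-like protein known from synapses, measured 6.68, 5.83 and 7.36 CPM in WT and 0.0788, 0.277 and 0 CPM in KO (log2 fold change -5.69 ± 0.47, adjusted p = 1.47e-07). Il3, the growth factor of mast cells and basophils, measured 20.2, 10.4 and 16.4 CPM in WT and 0.0788, 0.369 and 0.185 CPM in KO (log2 fold change -6.18 ± 0.42, adjusted p = 6.48e-07). The WT libraries of each gene spread little beside the distance to KO, and the KO values of C1ql3 and Il3 rest on 4 and 7 counts over the 3 libraries.

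Further genes of this set act inside the cell or in its membrane. Tent5a, a poly(A) polymerase, measured 86.05, 53.4 and 55.2 CPM in WT and 2.84, 2.67 and 2.78 CPM in KO (log2 fold change -4.55 ± 0.21, adjusted p = 3.86e-09). Cacna1s, the pore of an L-type calcium channel, measured 13.1, 9.02 and 11.8 CPM in WT and 0.945, 0.645 and 0.463 CPM in KO (log2 fold change -4.00 ± 0.29, adjusted p = 1.22e-07). Klf4, a transcription factor tied to cell-cycle exit, measured 19.8, 19.03 and 17.1 CPM in WT and 1.65, 1.84 and 1.67 CPM in KO (log2 fold change -3.43 ± 0.21, adjusted p = 3.26e-09). WT replicate 1 was the highest for Tent5a, and without the replicate 1 libraries of both genotypes its log2 fold change was -4.31. The glutamate transporter Slc1a2 was in this set as well (log2 fold change -3.62 ± 0.40, adjusted p = 6.26e-05).

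**Figure D1:**
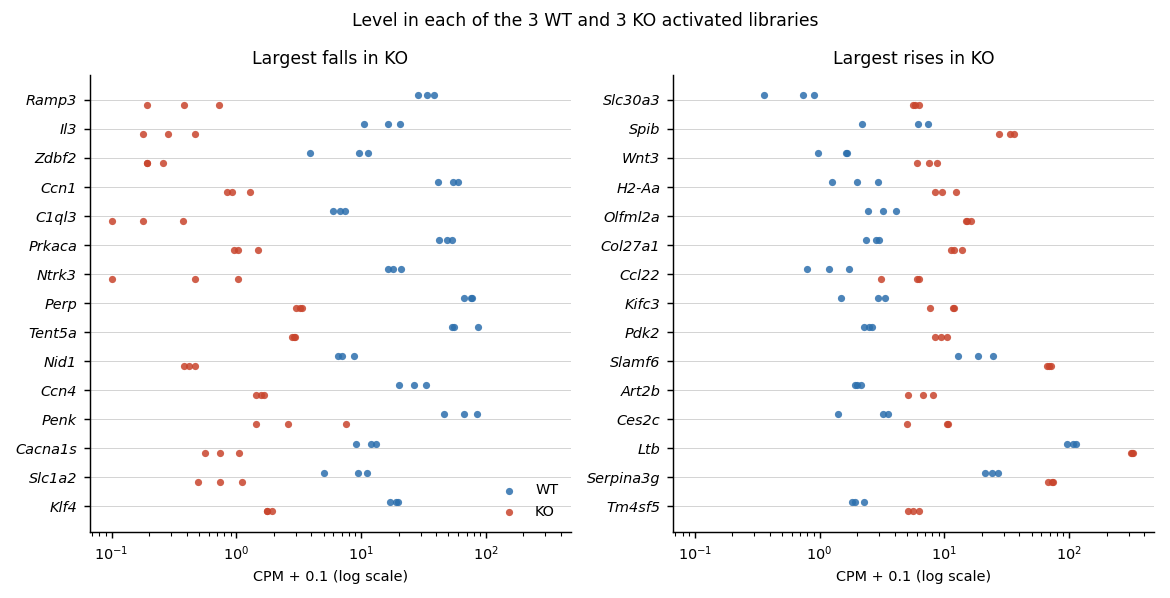
CPM of each of the 6 activated libraries on a log axis, after adding 0.1 CPM, for the 15 genes with the largest falls (left) and the 15 with the largest rises (right) in KO by the rule given in the text, with WT libraries in blue and KO libraries in red. In every row the colours separate, as the rule requires, and several of the falls end under 1 CPM, while most rises span less.

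Zdbf2, an imprinted gene of zinc finger type, measured 3.82, 11.3 and 9.51 CPM in WT and 0.158, 0.0922 and 0.0926 CPM in KO (log2 fold change -5.99 ± 0.62, adjusted p = 0.000113), the latter resting on 4 counts. Its WT values differed more between libraries than those of most falls, with replicate 1 the lowest, and by the rule all lay above KO. The promoters of 4 genes with a fall in RNA and a less open site near their start (Zdbf2, Nid1, Hopx, Sele) are shown. The site overlaps the printed window at Zdbf2 and Hopx. It lies downstream of the window at Sele and Nid1, with its centre 472 bp and 1082 bp after the start. Plk2, lower in RNA without a less open site there, and H2-Aa, higher in KO, are shown because their windows also hold the motif. Each runs from 250 bases before to 50 bases after a RefSeq start on GRCm38.p6, 5′ to 3′ on the gene's strand, with the cyclic AMP response element TGACGTCA, its part TGACG and the AP-1 motif TGANTCA on either strand in capitals.
Zdbf2, chr1:63273019-63273318, plus strand: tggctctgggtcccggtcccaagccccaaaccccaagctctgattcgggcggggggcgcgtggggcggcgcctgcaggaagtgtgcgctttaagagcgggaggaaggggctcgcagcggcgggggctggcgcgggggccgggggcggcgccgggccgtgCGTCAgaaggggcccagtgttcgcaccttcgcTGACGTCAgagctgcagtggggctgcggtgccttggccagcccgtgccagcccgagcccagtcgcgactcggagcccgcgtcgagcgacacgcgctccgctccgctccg
Nid1, chr13:13437352-13437651, plus strand: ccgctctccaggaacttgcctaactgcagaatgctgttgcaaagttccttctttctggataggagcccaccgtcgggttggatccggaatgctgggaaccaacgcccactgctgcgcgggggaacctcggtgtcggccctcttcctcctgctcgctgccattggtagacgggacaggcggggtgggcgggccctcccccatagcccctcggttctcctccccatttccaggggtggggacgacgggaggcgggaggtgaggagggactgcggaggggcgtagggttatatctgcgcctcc
Hopx, chr5:77115074-77115373, minus strand: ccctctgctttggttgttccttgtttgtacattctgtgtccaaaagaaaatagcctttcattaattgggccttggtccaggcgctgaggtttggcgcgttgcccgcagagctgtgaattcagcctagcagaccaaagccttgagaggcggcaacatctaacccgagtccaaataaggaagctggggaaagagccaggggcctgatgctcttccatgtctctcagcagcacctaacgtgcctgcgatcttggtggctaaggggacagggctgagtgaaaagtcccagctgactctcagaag
Sele, chr1:164047984-164048283, plus strand: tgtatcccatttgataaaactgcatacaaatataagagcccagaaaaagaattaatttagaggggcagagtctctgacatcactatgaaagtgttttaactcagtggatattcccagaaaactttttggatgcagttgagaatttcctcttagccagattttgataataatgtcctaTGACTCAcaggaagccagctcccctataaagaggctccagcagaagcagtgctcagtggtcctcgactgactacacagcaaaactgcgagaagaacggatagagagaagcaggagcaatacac
Plk2, chr13:110394794-110395093, plus strand: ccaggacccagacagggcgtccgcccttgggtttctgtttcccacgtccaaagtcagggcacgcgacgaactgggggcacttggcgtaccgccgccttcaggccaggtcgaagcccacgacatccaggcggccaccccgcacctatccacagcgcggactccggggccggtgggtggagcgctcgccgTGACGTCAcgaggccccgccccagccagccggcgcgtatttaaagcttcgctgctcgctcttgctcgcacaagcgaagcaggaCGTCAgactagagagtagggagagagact
H2-Aa, chr17:34287774-34288073, minus strand: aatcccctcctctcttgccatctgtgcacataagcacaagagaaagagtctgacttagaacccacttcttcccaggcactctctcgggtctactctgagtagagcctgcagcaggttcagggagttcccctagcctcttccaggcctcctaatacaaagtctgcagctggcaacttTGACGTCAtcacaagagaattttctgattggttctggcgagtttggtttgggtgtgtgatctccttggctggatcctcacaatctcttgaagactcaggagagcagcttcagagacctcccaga
The full TGACGTCA starts 59 bases upstream of the Zdbf2 start, 62 bases upstream of the Plk2 start and 74 bases upstream of the H2-Aa start. The Sele window holds an AP-1 motif, and the Nid1 and Hopx windows hold none of the capitalised motifs. Counted over all promoters in the table, TGACGTCA lay in 3.66% of the promoters of genes called lower, 1.46% of those called higher and 3.14% of those of all tested genes. The shorter TGACG, which every TGACGTCA contains, lay in 32.2%, 23.6% and 31.7%. TGANTCA lay in 5.75%, 6.24% and 4.82%, the E-box CACGTG in 9.24%, 13.7% and 10.1%, GGGCGG in 65.3%, 59.0% and 62.7%, and CCAAT in 35.3%, 36.5% and 38.1%. A match describes the letters and not a bound site.

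Open chromatin was read in the authors' deposited table of activated ATAC-seq sites, which gives a count per library, a fold and a false discovery rate (FDR) for 110808 sites. At an FDR under 0.05 the authors' deposited table called 5138 sites lower in KO (4.64%) and 575 higher (0.519%). Every site it called has an absolute log2 fold of at least 1, and its fold takes no account of depth. By edgeR's test with TMM scaling on the deposited counts, 21287 of 106123 sites were lower (20.1%) and 16063 higher (15.1%), of which 8113 (7.64% of the sites tested) and 2310 (2.18%) had an absolute log2 fold of at least 1. The gene counts that follow use the authors' deposited table unless edgeR is named. At the Zdbf2 start the site held 57, 78 and 69 counts in the WT libraries and 18, 23 and 29 in the KO libraries (FDR 0.00637 in the authors' deposited table). The site downstream of the Nid1 start held 159, 170 and 187 counts in WT and 41, 35 and 34 in KO (FDR 1.02e-05 in the authors' deposited table). Both sites were less open in every KO library, from library totals of 20622289 to 25318916 counts. Downstream of the start of Sele, whose protein is an adhesion molecule of inflamed endothelium, the site held 154, 151 and 134 counts in WT and 35, 31 and 33 in KO, and at Hopx, a homeodomain cofactor, 35, 36 and 36 in WT and 8, 8 and 13 in KO.

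Within 1 kb of a RefSeq start, 13 of 804 lower genes with a site there had a less open site (1.62%, against 0.275% of all 8727 tested genes with a site there). They were Ccr6, Gpr146, Gzmb, Hopx, Nebl, Nid1, Pde4b, Pdgfa, Pla2g4f, Sele, Spata6, Uap1 and Zdbf2. None of 499 higher genes had one. Over a wider window, the gene span with 10 kb on either side, 387 of 1063 lower genes had at least 1 less open site (36.4%, against 15.8% of all tested genes with a site), as did 87 of 685 higher genes (12.7%) and 13.7% of genes not called. By the same calls 25 of the higher genes had at least 1 more open site (3.65%), as did 1.88% of the lower genes and 1.77% of all. With the sites called by edgeR, 581 of 685 higher genes had a more open site (84.8%, against 65.7% of all and 53.6% of the lower genes), and 867 of 1063 lower genes a less open one (81.6%, against 48.6% of all and 47.7% of the higher genes). Among edgeR's sites with an absolute log2 fold of at least 1, the shares with a more open site were 15.6% of higher genes, 8.47% of lower genes and 7.83% of all, and the shares with a less open site 51.3% of lower genes, 19.1% of higher genes and 23.7% of all. How common more open sites are thus differed between the authors' deposited calls and edgeR's, and with the fold limit. The 2 sets of calls differ in test and in scaling, and scaling was not varied alone. Within 1 kb of the start, 2 of 499 higher genes had a more open site (0.401%), against 0.0229% of all tested genes with a site there. Genes called lower were longer, with a median span of 34951 bp against 23168 bp for genes called higher. The share called lower was 5.72%, 6.74%, 9.38% and 14.6% from the shortest to the longest quartile of gene span, while the share called higher was 5.86%, 5.42%, 5.25% and 6.94%. By quartile of span, the share of lower genes with a less open site was 16.6% against 5.46% of all genes in the shortest, 24.9% against 8.42% and 31.1% against 13.7% in the next, and 52.6% against 34.9% in the longest.

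**Figure D2:**
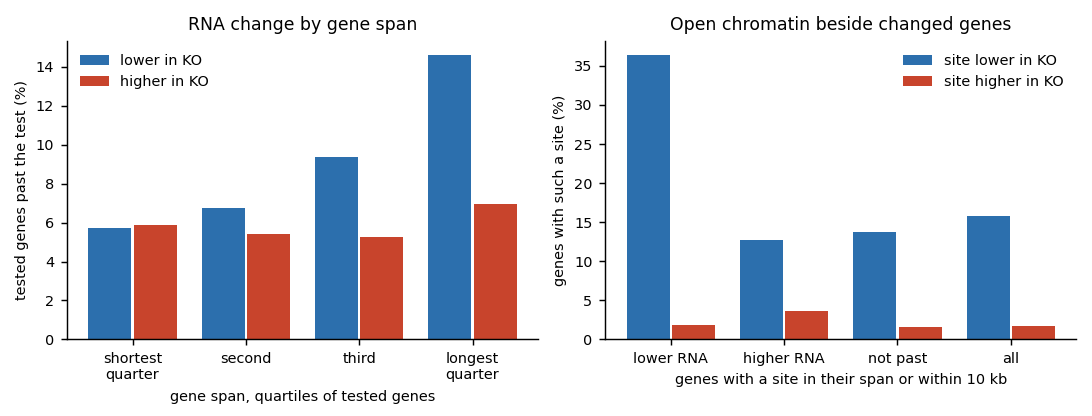
Left, the percentage of tested genes called lower (blue) or higher (red) in KO in each quartile of gene span, shortest to longest. Right, the percentage of genes with at least 1 site called less open or more open in KO by the authors' deposited table within their span or 10 kb on either side, by RNA call. The share of genes called lower is 14.6% in the longest quartile, and 36.4% of lower genes hold a less open site.

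The 15 largest rises, taken by the same rule, are given next. Slc30a3, a zinc transporter of vesicles, measured 0.260, 0.637 and 0.808 CPM in WT and 5.75, 5.53 and 6.21 CPM in KO (log2 fold change 3.34 ± 0.33, adjusted p = 3.84e-06). Spib, an ETS factor of B cells and plasmacytoid dendritic cells, measured 2.08, 7.29 and 6.10 CPM in WT and 27.5, 33.8 and 36.3 CPM in KO (log2 fold change 2.66 ± 0.38, adjusted p = 0.000821). H2-Aa, the alpha chain of an MHC class II molecule, measured 1.91, 2.82 and 1.17 CPM in WT and 8.35, 9.40 and 12.2 CPM in KO (log2 fold change 2.34 ± 0.34, adjusted p = 0.000184). For the 3 genes every KO library exceeded every WT library, as the rule requires, and WT replicate 1 was the lowest library of Spib. The B cell and myeloid marker sums given above also were higher in KO, and their part in these rises was not tested.

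Wnt3, a secreted Wnt ligand, measured 0.867, 1.55 and 1.53 CPM in WT and 5.99, 7.38 and 8.71 CPM in KO (log2 fold change 2.48 ± 0.27, adjusted p = 4.78e-06). Col27a1, a fibrillar collagen, measured 2.25, 2.73 and 2.87 CPM in WT and 11.1, 13.7 and 11.9 CPM in KO (log2 fold change 2.22 ± 0.33, adjusted p = 0.000222). Ccl22, a chemokine for CCR4-bearing T cells, measured 0.694, 1.09 and 1.61 CPM in WT and 2.99, 5.90 and 6.21 CPM in KO (log2 fold change 2.13 ± 0.36, adjusted p = 0.000419). By the rule of choice, no library of either genotype crossed into the range of the other.

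Slamf6, a costimulatory receptor of the SLAM family, measured 12.8, 18.6 and 24.5 CPM in WT and 71.8, 66.9 and 68.3 CPM in KO (log2 fold change 1.89 ± 0.22, adjusted p = 0.000201). Ltb, the membrane subunit of lymphotoxin, measured 108, 113 and 95.4 CPM in WT and 322, 316 and 322 CPM in KO (log2 fold change 1.60 ± 0.10, adjusted p = 1.15e-08). Pdk2, a kinase that closes the entry of pyruvate into mitochondrial oxidation, measured 2.17, 2.37 and 2.51 CPM in WT and 10.3, 9.31 and 8.34 CPM in KO (log2 fold change 1.99 ± 0.17, adjusted p = 2.17e-07). The KO libraries were tightly grouped above the WT libraries. The remaining rises were the olfactomedin-like Olfml2a (2.28), the kinesin Kifc3 (2.05), the ADP-ribosyltransferase Art2b (1.75), the carboxylesterase Ces2c (1.70), the serpin Serpina3g (1.58) and the tetraspan protein Tm4sf5 (1.54). Art2b, Ces2c and Serpina3g have near-identical copies among which reads can be split, and the call of Ces2c was lost without WT replicate 3, KO replicate 2 or KO replicate 3 (adjusted p up to 0.0669).

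Set beside the naive cells of the same table, the large falls were of several kinds. Genes near absent from naive cells of both genotypes included Ccn1, Penk, Nid1, Zdbf2 and Il3, each under 1 CPM there. Ramp3, by contrast, measured 15.5 ± 2.004 CPM (SD) in naive WT and 13.4 ± 0.928 CPM in naive KO, and Tent5a 92.6 ± 4.49 and 99.8 ± 7.48 CPM. Ramp3, Ntrk3 and Tent5a thus stood at similar levels in both naive genotypes and differed after activation. Among the rises, Ltb measured 852 ± 104 CPM in naive WT and 912 ± 125 CPM in naive KO, and Slamf6 67.7 ± 16.8 and 76.5 ± 7.70 CPM, so that in activated KO cells Ltb lay between the naive level and the activated WT level. The test of whether the genotype difference changed between naive and activated cells, the interaction, passed for 443 genes (3.7% of those tested), and for 286 of the 1083 genes called lower and 137 of the 706 called higher. Genes called in activated cells differ there by choice, and that difference is a part of the interaction, so their counts lean on it. For genes without naive counts, such as Il3, Nid1 and Zdbf2, the interaction test could not decide. Of the genes called in activated cells, 12 of the lower and 8 of the higher were also called in naive cells.

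**Figure D3:**
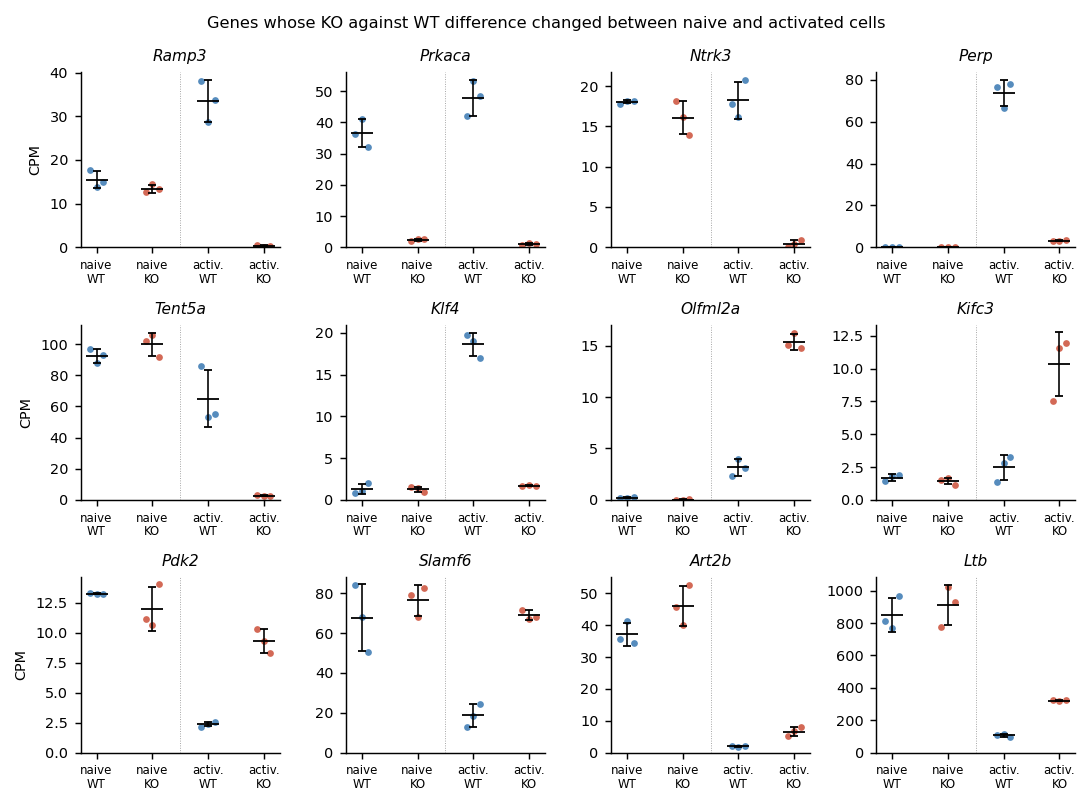
CPM, on axes from 0, of 12 genes in naive WT, naive KO, activated WT and activated KO libraries, with points for libraries, a dash for the mean and bars for the SD (n = 3 per group). Ramp3, Ntrk3 and Tent5a are at similar levels in the naive genotypes and low in activated KO, whereas Ltb, Slamf6 and Pdk2 are lower in activated than in naive WT cells and less so in KO.

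To describe the rest of the response, 42 classes of genes were counted, after taking the genes of IL-12 signalling and of CREB out of all of them. They held 2799 genes of the table, and 2135 of these passed the filter on low counts and were tested, of which 324 were lower (15.2%) and 155 higher (7.26%), both above the shares of all tested genes given above. The share lower exceeded that of all genes in 28 classes and the share higher in 25, and no member was called in 2 classes, the anchoring proteins of PKA and the 64 translation factors. Of the same genes, 234 to 277 were lower and 107 to 125 higher when each library was left out in turn, and 580 and 349 in the activated libraries alone with the replicate block. Where a class count moved by more than 1.5 times when 1 library was left out, or with the replicate number as a block in the fit of all 12 libraries (called the block below), the other count is given with it. Percentages of members given below read against 9.04% lower and 5.89% higher over all tested genes.

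**Figure D4:**
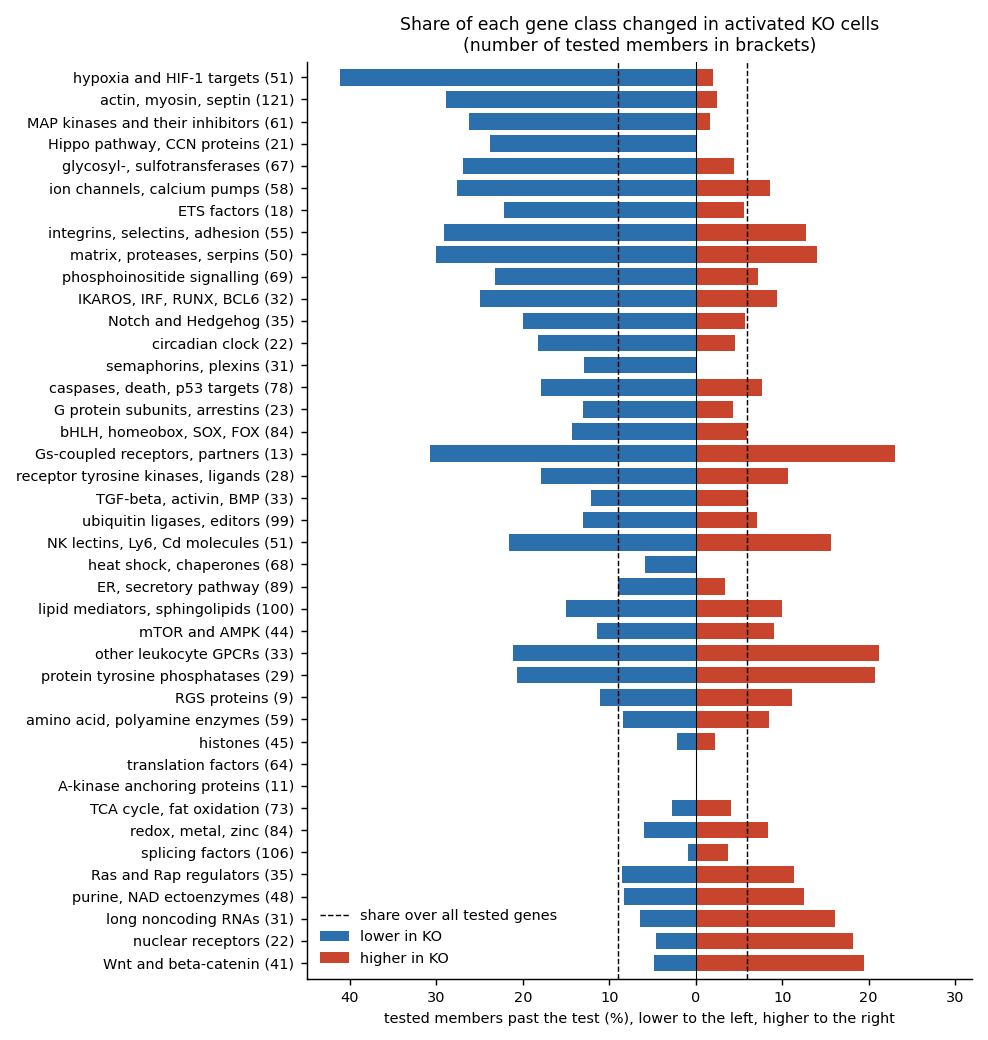
Percentage of tested members called lower (blue, left of 0) and higher (red, right of 0) in KO for 41 of the 42 gene classes, with the number tested in brackets and dashed lines at the shares over all tested genes, 9.04% and 5.89%. The longest bars for lower genes belong to the hypoxia class, and the bars of the translation and splicing classes are empty or inside the lines.

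The receptors that feed cyclic AMP moved in both directions. Of 13 tested Gs-coupled receptors and partners, 4 were lower (30.8%) and 3 higher (23.1%). Gpr65, a proton-sensing receptor, measured 107, 65.9 and 72.2 CPM in WT and 15.3, 11.5 and 12.2 CPM in KO (log2 fold change -2.64 ± 0.18, adjusted p = 3.72e-07). The adenosine receptors Adora2b (-2.09) and Adora2a (-0.65) were also lower. Ptger4, a receptor for prostaglandin E, measured 102, 104 and 113 CPM in WT and 153, 161 and 159.6 CPM in KO (log2 fold change 0.57 ± 0.06, adjusted p = 7.13e-06). The histamine receptor Hrh2 (1.01) and Ramp1, the partner that makes the CGRP receptor (1.53), were higher too. The Ramp genes thus went opposite ways, with every KO library of Ramp3 below and every one of Ramp1 above its WT libraries.

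Other G protein-coupled receptors were evenly split, with 7 lower and 7 higher of 33 (21.2% each). Gpr171, a receptor found on T cells, measured 55.7, 59.2 and 57.1 CPM in WT and 13, 11.1 and 11.2 CPM in KO (log2 fold change -2.28 ± 0.11, adjusted p = 1.16e-10). S1pr1, the sphingosine 1-phosphate receptor that lets T cells leave lymph nodes, measured 12.3, 8.47 and 8.44 CPM in WT and 4.49, 4.43 and 4.45 CPM in KO (log2 fold change -1.13 ± 0.14, adjusted p = 1.26e-05). Adgre5, the adhesion receptor CD97, measured 86.2, 97.7 and 101 CPM in WT and 164, 164 and 139 CPM in KO (log2 fold change 0.72 ± 0.09, adjusted p = 2e-05). The KO libraries stood below WT for the first pair and above for the last. Of 23 G protein subunits and receptor kinases, 3 were lower and 1 higher (2 with the block, and none without WT replicate 1, WT replicate 3, KO replicate 1 or KO replicate 2), and 1 of the lower ones, Gng4, a gamma subunit, had 74 counts over the WT libraries and 0 over the KO libraries, which makes it at least 25.2-fold lower when the KO group is set to the limit of 3 counts in all. The RGS proteins, which switch G proteins off, gave 1 lower, Rgs16 (-0.49), and 1 higher, Rgs12 (0.67), of 9 (11.1% each). With the block or without KO replicate 1, 2 were lower.

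Calcium and other ion channels had 16 lower (27.6%) and 5 higher (8.62%) of 58 tested. Cacnb3, the beta subunit that carries voltage-gated calcium channels to the membrane, measured 25.7, 23.9 and 25.04 CPM in WT and 9.61, 8.11 and 8.99 CPM in KO (log2 fold change -1.48 ± 0.18, adjusted p = 1.42e-05). Itpr1, the calcium release channel of the endoplasmic reticulum, measured 137, 124 and 125 CPM in WT and 87.8, 79.4 and 73.9 CPM in KO (log2 fold change -0.68 ± 0.09, adjusted p = 2.28e-05). KO libraries were below WT in both genes. With Cacna1s and the auxiliary subunit Cacna2d1 (-2.35), 3 kinds of subunit of voltage-gated calcium channels were lower. The store-operated channel Orai1 (-0.29) and its sensor Stim1 (-0.26) were slightly lower, while Orai2 (0.47) and Orai3 (0.33) were higher, as was the potassium channel Kcnh2 (1.06). The count of lower channels was 8 without KO replicate 2 and 9 without both replicate 1 libraries, and that of higher channels was 3 without WT replicate 2 and 2 without KO replicate 1.

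MAP kinases and their feedback regulators had 16 lower (26.2%) and 1 higher (1.64%) of 61. Spry1, a Sprouty inhibitor of Ras signalling, measured 81.5, 105 and 100.3 CPM in WT and 42.1, 48.3 and 49.2 CPM in KO (log2 fold change -1.04 ± 0.11, adjusted p = 3.69e-06). Map3k8, the kinase Tpl2 upstream of ERK, measured 84.05, 68.4 and 75.4 CPM in WT and 30.5, 28.2 and 30.02 CPM in KO (log2 fold change -1.36 ± 0.15, adjusted p = 1.42e-05). Dusp14, a phosphatase of MAP kinases, measured 35.3, 34.9 and 34.5 CPM in WT and 13.2, 15.3 and 16.9 CPM in KO (log2 fold change -1.20 ± 0.13, adjusted p = 4.78e-06). In all 3 genes the genotypes did not overlap. Other phosphatases of the same family were lower, among them Dusp3 (-1.75), Dusp5 (-1.40), Dusp10 (-0.54) and Dusp16 (-0.54), beside Spry2 (-2.28) and the kinase Map2k3 (-0.85), so that the lower members included both activating kinases and inhibitors. Mapk11 was the member called higher (0.55). Without both replicate 1 libraries 9 members were lower.

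Genes of phosphoinositide signalling had 16 lower (23.2%) and 5 higher (7.25%) of 69. Pik3r5, the regulatory subunit of the PI3 kinase that G proteins activate, measured 43.4, 41.1 and 40.7 CPM in WT and 22.2, 15.7 and 21.03 CPM in KO (log2 fold change -1.08 ± 0.11, adjusted p = 4.08e-06), and its catalytic partner Pik3cg was lower as well (-0.50). Phlpp1, a phosphatase of AKT, measured 31.1, 35.7 and 31.4 CPM in WT and 16.1, 17.4 and 18.5 CPM in KO (log2 fold change -0.91 ± 0.12, adjusted p = 3.63e-05). Itpkb, which phosphorylates the second messenger IP3, was lower (-0.76), while its relative Itpka was higher (0.74). Every KO library lay below every WT library for Pik3r5 and Phlpp1. The 5 higher calls were fewer without single libraries, with 3 without WT replicate 3 or KO replicate 1, 2 without KO replicate 3, and 1 without WT replicate 1 or KO replicate 2.

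Tyrosine phosphatases were split evenly, with 6 lower and 6 higher of 29 (20.7% each). The lower ones included Ptpn22, a negative regulator of T cell receptor signalling, at 120.5, 107 and 106 CPM in WT and 61.7, 62.3 and 62.2 CPM in KO (log2 fold change -0.84 ± 0.07, adjusted p = 1.12e-07), and Ubash3b (-0.98), which acts on the same pathway. Among the higher ones were Ptpn14 (1.18), Ptpn11 (0.25) and Ptpn6 (0.23). The class of receptor tyrosine kinases, their ligands and relatives had 5 lower (17.9%) and 3 higher (10.7%) of 28. Pdgfa (-1.54) and Egfr (-1.11) were lower beside Ntrk3, and Axl (0.39) and Fgf13 (0.89) were higher. Fgf13, counted here as an FGF family member, encodes a protein known mainly from inside the cell. The lower genes of this class were 3 without WT replicate 2 or KO replicate 1. Among 44 genes of mTOR and AMPK signalling, 5 were lower (11.4%) and 4 higher (9.09%), near the 9.04% and 5.89% of all tested genes. Of the higher calls 2 were left without WT replicate 2 or KO replicate 1, and 1 without WT replicate 1, KO replicate 2 or KO replicate 3. The leucine and arginine sensors and their relatives differed in direction, with Sesn3 (-0.79), Castor1 (-0.92) and Castor2 (-0.93) lower and Sesn1 (0.54) higher.

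Regulators of Ras and Rap had 3 lower (8.57%, against 9.04% of all tested genes) and 4 higher (11.4%, against 5.89%) of 35. The block gave 5 lower, leaving out KO replicate 3 gave 1 lower and 2 higher, and leaving out WT replicate 3 or KO replicate 2 gave 2 higher. The Ras GTPase-activating proteins Rasa3 (-0.48) and Rasal3 (0.39) went opposite ways, the first lower and the second higher.

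Developmental pathways differed from one another. In the Notch and Hedgehog class 7 were lower and 2 higher of 35. Rbpj, the DNA-binding partner of Notch, measured 181, 157 and 159 CPM in WT and 63.2, 62.6 and 66.2 CPM in KO (log2 fold change -1.37 ± 0.08, adjusted p = 9.06e-10). Notch2 measured 389, 333 and 345 CPM in WT and 184, 193 and 186 CPM in KO (log2 fold change -0.92 ± 0.07, adjusted p = 1.15e-07). Receptor and partner both stood lower in each KO library. The ligands Dll1 (-1.44) and Jag2 (-0.73) and the glycosyltransferase Lfng (-0.51) were lower, and Dtx4 was higher (1.07). Of the 7 lower calls 4 were left without WT replicate 2, without KO replicate 2, or without both replicate 1 libraries, and 1 of the higher calls was left without WT replicate 1, WT replicate 2, KO replicate 2 or KO replicate 3.

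The Wnt class ran the other way, with 2 lower (4.88%) and 8 higher (19.5%) of 41. Besides Wnt3, the higher genes were the ligand Wnt10a (1.05), the receptor-degrading ligase Rnf43 (1.12), the planar polarity protein Vangl2 (1.63), the signal transducer Dvl2 (0.38), the transcription factors Tcf7 (0.44) and Tcf7l1 (1.41) and the corepressor Tle3 (0.46). Tcf7, which marks naive and memory T cells, measured 232, 254 and 263 CPM in WT and 316, 364 and 338 CPM in KO (log2 fold change 0.44 ± 0.08, adjusted p = 0.000532). Its KO libraries were all above its WT libraries. The lower genes were the corepressor Tle1 (-1.60) and Kremen1 (-0.33), and neither was called without WT replicate 3, without KO replicate 2 or without both replicate 1 libraries, while leaving out WT replicate 1, KO replicate 1 or KO replicate 3 left 1 lower call in the class. The Hippo and CCN class had 5 lower (23.8%) and none higher of 21, with the kinase Stk4 (-0.65) and the cofactor Vgll4 (-0.70) beside the CCN genes. In the TGF-beta class 4 were lower (12.1%) and 2 higher (6.06%) of 33, near the 9.04% and 5.89% of all tested genes. The activin subunit Inhba (-3.11), the corepressors Skil (-0.75) and Tgif1 (-0.67) and the receptor Tgfbr2 (-0.57) were lower. Bmp7 (1.06) and Id2 (0.52) were higher, of which 1 call was left without KO replicate 1.

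**Figure D5:**
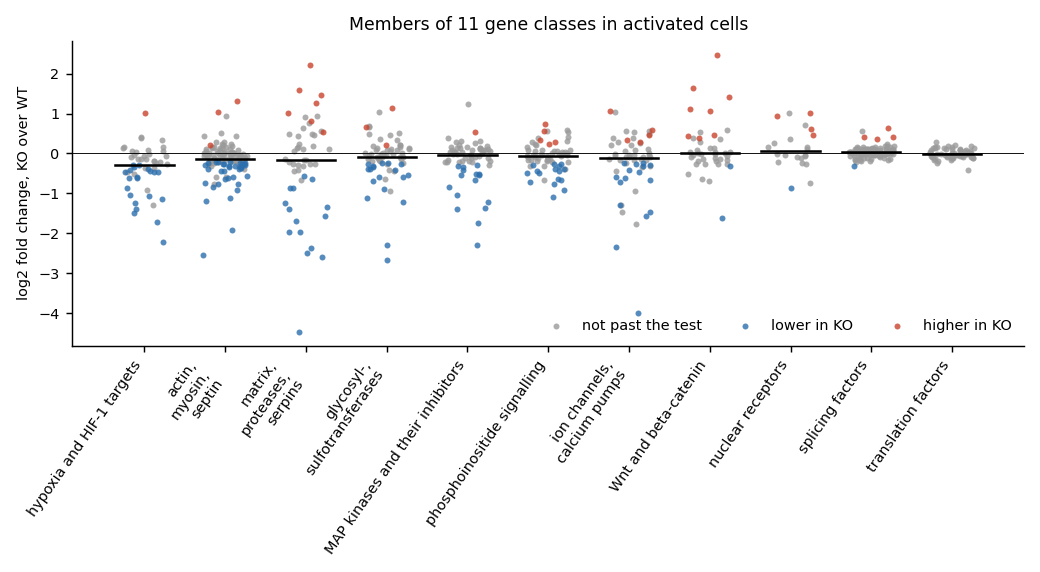
Log2 fold change, KO minus WT, of every tested member of 11 gene classes, coloured by call (blue lower, red higher, grey not called), with a black line at the class median. The hypoxia and actin classes hold 21 and 35 points called lower beside more points not called, most called points of the Wnt and nuclear receptor classes lie above 0, and the splicing and translation classes stay near 0.

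Transcription factors of lymphocyte fate were called lower more than higher. In the class of Ikaros, IRF, RUNX and zinc finger factors 8 were lower and 3 higher of 32. Runx3, a factor of cytotoxic and Th1 cells, measured 143, 95.8 and 91.1 CPM in WT and 52.9, 45.4 and 44.9 CPM in KO (log2 fold change -1.20 ± 0.15, adjusted p = 0.00017). Irf4, which scales with the strength of antigen receptor signalling, measured 628, 519 and 511 CPM in WT and 336, 336 and 324 CPM in KO (log2 fold change -0.73 ± 0.12, adjusted p = 0.000475). WT replicate 1 was the highest library of both, and all KO libraries lay lower still than the other WT libraries. Without both replicate 1 libraries Runx3 was at -1.05. Zeb2 (-1.21), Bcl6 (-1.42) and Runx2 (-1.08) were lower too, and Irf1 (0.37) and Irf2 (0.41) higher. The count of lower factors was 5 without KO replicate 3.

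Of 84 homeobox, basic helix-loop-helix, SOX and related factors, 12 were lower (14.3%, against 9.04% of all tested genes) and 5 higher (5.95%, against 5.89%). Satb1, a chromatin organiser of T cells, measured 309, 295 and 314 CPM in WT and 66.2, 52.2 and 58.4 CPM in KO (log2 fold change -2.37 ± 0.09, adjusted p = 5.73e-12), and its KO libraries were well below WT. Gata3 (-0.49), the factor of Th2 cells, Foxo1 (-0.43) and Hopx (-1.18) were lower, while Maf (1.62) and Tox (0.37) were higher. The ETS factors Ets1 (-0.37), Ets2 (-0.73), Fli1 (-0.44) and Elk3 (-0.35) were lower among 18 (22.2%), and Spib the one higher (5.56%). Nuclear receptors had 1 lower (4.55%, and none without WT replicate 2, WT replicate 3, KO replicate 2 or KO replicate 3) and 4 higher (18.2%) of 22. Rxra, the shared partner of retinoid and other nuclear receptors, measured 35.9, 59.02 and 53.2 CPM in WT and 87.1, 103 and 107 CPM in KO (log2 fold change 1.00 ± 0.14, adjusted p = 0.000231), and the retinoic acid receptors Rarg (0.93) and Rara (0.46) and the thyroid hormone receptor Thra (0.61) were higher. The KO libraries of Rxra were all above the WT libraries, and the call of Rara was lost in 6 alternative fits (adjusted p up to 0.168). Among 22 clock genes 4 were lower (18.2%) and 1 higher (4.55%). The lower were 2 without WT replicate 2, WT replicate 3, KO replicate 2 or KO replicate 3, and the higher 2 with the block. Bhlhe40, a repressor induced by activation, measured 486, 382 and 413 CPM in WT and 129.8, 121 and 131 CPM in KO (log2 fold change -1.75 ± 0.10, adjusted p = 2.75e-09), and Dbp was higher (1.25). All KO libraries of Bhlhe40 lay far below its WT libraries.

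The cytoskeleton gave the largest number of lower genes of all classes and is the class with the most tested members. Of 121 actin, myosin and septin genes, 35 were lower (28.9%, against 9.04% of all tested genes) and 3 higher (2.48%, against 5.89%). The share lower was larger in the hypoxia (41.2%), Gs-coupled receptor (30.8%), matrix and protease (30.0%) and adhesion (29.1%) classes. Actn1, the actin crosslinker alpha-actinin, measured 335, 379 and 417 CPM in WT and 164, 178 and 184 CPM in KO (log2 fold change -1.11 ± 0.09, adjusted p = 9.45e-08). Actg1, the gamma isoform of cytoplasmic actin, measured 939, 964 and 996 CPM in WT and 604, 630.5 and 648 CPM in KO (log2 fold change -0.62 ± 0.07, adjusted p = 3.84e-06). Scin, an actin-severing protein, measured 14.5, 15.6 and 21.7 CPM in WT and 2.52, 3.50 and 2.87 CPM in KO (log2 fold change -2.54 ± 0.22, adjusted p = 8.12e-07). The genotypes were apart in all 3 genes. Myosins were lower as a group of 6 among 15 tested Myo genes, with Myo1e (-1.92), Myo10 (-0.91) and Myo1g (-0.76) among them, as were the formins Diaph1 (-0.63) and Fmnl1 (-0.59), the filamin Flna (-0.21), vinculin Vcl (-0.75), and the kinases Rock1 (-0.22) and Rock2 (-0.25). Most of these falls were under 1 on the log2 scale, and the count of lower genes was 22 without KO replicate 3 and 21 without both replicate 1 libraries. Pfn2 (1.32) and Evl (0.22) were among the higher, of which 1 call was left without WT replicate 2, KO replicate 1 or KO replicate 3.

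Adhesion receptors had 16 lower (29.1%) and 7 higher (12.7%) of 55. Itgav, the integrin alpha V chain, measured 98.4, 78.1 and 83.9 CPM in WT and 27.2, 31.1 and 28.9 CPM in KO (log2 fold change -1.58 ± 0.09, adjusted p = 1.13e-09), and its partner Itgb3 was lower (-1.54). Itga3, a laminin-binding chain, measured 59.1, 53.6 and 54.1 CPM in WT and 22.4, 26.6 and 26.1 CPM in KO (log2 fold change -1.15 ± 0.12, adjusted p = 1.99e-06). All KO libraries lay below all WT libraries in both. CD44 (-1.11) and the selectins Sele (-4.21) and Selp (-3.62) were lower, whereas the gut-homing pair Itga4 (0.29) and Itgb7 (0.36) and the tetraspanin Tspan33 (2.33) were higher. Of 31 guidance molecules 4 were lower (12.9%, against 9.04% of all tested genes) and none higher (3 with the block, 1 without WT replicate 1). The semaphorin Sema4c (-1.68) and the plexin Plxnc1 (-0.78) were among the lower.

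Matrix proteins, proteases and serpins had 15 lower and 7 higher of 50. Serpinb9, the inhibitor that shields cells from granzyme B, measured 287, 230.4 and 239.5 CPM in WT and 85.5, 83.1 and 85.3 CPM in KO (log2 fold change -1.58 ± 0.08, adjusted p = 4.81e-10). Serpine2, an inhibitor of thrombin and urokinase, measured 60.98, 73.4 and 83.2 CPM in WT and 15.8, 21.02 and 18.5 CPM in KO (log2 fold change -1.98 ± 0.16, adjusted p = 1.76e-07). Neither gene had overlapping groups. The urokinase receptor Plaur (-2.38), the crosslinking enzyme Tgm2 (-2.60) and the galectins Lgals1 (-0.85) and Lgals3 (-1.96) were lower. The higher genes were largely matrix components, the collagens Col11a2 (0.53), Col18a1 (1.00) and Col27a1 with perlecan Hspg2 (1.26) and versican Vcan (1.46), beside Serpina3f (0.81) and Serpina3g. The higher calls were 4 without WT replicate 1, WT replicate 2 or KO replicate 3 and 3 without KO replicate 2.

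Enzymes that build glycans had 18 lower (26.9%) and 3 higher (4.48%) of 67. Chst11, a sulfotransferase of chondroitin, measured 18.6, 18.9 and 21.1 CPM in WT and 3.86, 3.60 and 4.54 CPM in KO (log2 fold change -2.29 ± 0.17, adjusted p = 3.69e-08). St8sia1, the sialyltransferase that makes ganglioside GD3, measured 30.5, 31.97 and 32.1 CPM in WT and 13, 15.03 and 12.6 CPM in KO (log2 fold change -1.22 ± 0.09, adjusted p = 1.89e-08), while its relative St8sia6 measured 17.6, 16.2 and 16.1 CPM in WT and 35.8, 38.6 and 35.9 CPM in KO (log2 fold change 1.15 ± 0.13, adjusted p = 1.19e-05). The sialyltransferases thus separated in opposite directions, with no overlap in either. Fut8 (-0.88) and Mgat5 (-0.58), which fucosylate and branch N-glycans, and Galnt3 (-1.12) and Galnt14 (-2.67), which start O-glycans, were lower. Without KO replicate 3 the class had 11 lower genes, and without KO replicate 2 or KO replicate 3 it had 1 higher.

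Of 51 further surface molecules 11 were lower (21.6%) and 8 higher (15.7%). The higher calls were 5 without WT replicate 2, WT replicate 3 or KO replicate 1 and 4 without WT replicate 1 or KO replicate 3. Cd5, an inhibitor of antigen receptor signalling, measured 814, 783 and 812 CPM in WT and 501, 515 and 526 CPM in KO (log2 fold change -0.64 ± 0.07, adjusted p = 2.73e-06). Thy1 measured 573, 463 and 484 CPM in WT and 322, 289 and 277 CPM in KO (log2 fold change -0.78 ± 0.08, adjusted p = 3.63e-06). Both were lower in every KO library. Cd2 (-0.53), Cd6 (-0.46), Cd47 (-0.47) and Cd226 (-0.44) were lower, and Cd84 (0.61), Ly9 (0.28), Ly6e (0.50) and Cd70 (0.65) were higher beside Slamf6, so that 3 SLAM family members were higher together.

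In metabolism the hypoxia class stood out by count, with 21 lower (41.2%) and 1 higher (1.96%) of 51. Hif1a, the oxygen-regulated factor that drives glycolytic genes, measured 395, 278 and 270.3 CPM in WT and 110.4, 110.1 and 117 CPM in KO (log2 fold change -1.48 ± 0.11, adjusted p = 1.76e-07). Slc16a3, the lactate exporter, measured 286, 246 and 255 CPM in WT and 138, 97.9 and 119.6 CPM in KO (log2 fold change -1.15 ± 0.10, adjusted p = 7.93e-07). Ndrg1, a stress protein induced at low oxygen, measured 52.4, 47.3 and 48.5 CPM in WT and 20.7, 16.3 and 19.6 CPM in KO (log2 fold change -1.39 ± 0.14, adjusted p = 2.18e-06). WT replicate 1 was the highest library of Hif1a, and its log2 fold change without both replicate 1 libraries was -1.27. The glucose transporters Slc2a1 (-0.61) and Slc2a3 (-1.05), the glycolytic enzymes Ldha (-0.42) and Pgk1 (-0.28), the regulators Pfkfb3 (-0.39) and Egln1 (-0.29), the mitophagy receptors Bnip3 (-0.60) and Bnip3l (-0.46), the collagen hydroxylase P4ha2 (-1.04) and the peptide hormone Adm (-1.25) were lower. Adm encodes adrenomedullin, a ligand of the receptor that Ramp3 helps to form. Stc2, a secreted glycoprotein, was the member called higher (1.02). The class had 15 lower genes without both replicate 1 libraries and between 14 and 23 when each library was left out in turn.

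Of 73 genes of the citrate cycle and mitochondrial fuel use 2 were lower (2.74%) and 3 higher (4.11%), both below the shares of all tested genes. Ucp2 (0.44) was higher beside Pdk2. The block gave 4 lower and 6 higher there, and leaving out any single library left 1 lower or none. One-carbon, amino acid and polyamine metabolism had 5 lower and 5 higher of 59 (8.47% each, against 9.04% and 5.89% of all tested genes). The lower were 8 with the block, and the higher 2 or 3 when any 1 library other than WT replicate 1 was left out. The glutaminase Gls2 was lower (-1.23) and the kynurenine enzymes Kmo (1.17) and Kynu (2.33) were higher. Purine enzymes and ectoenzymes had 4 lower (8.33%) and 6 higher (12.5%) of 48. Among the higher were the adenosine-forming enzyme Nt5e (0.66), the adenosine-clearing enzyme Ada (0.44) and the transporter Slc29a1 (0.46). The lower calls were 2 without WT replicate 1, KO replicate 2 or KO replicate 3, and the higher calls 2 without WT replicate 3 and 3 without KO replicate 3. Redox and metal genes had 5 lower (5.95%) and 7 higher (8.33%) of 84. The zinc importer Slc39a8 (1.04) and both ferritin chains, Fth1 (0.25) and Ftl1 (0.32), were higher, and sulfiredoxin Srxn1 (-1.48) lower. Of the redox class, 3 lower calls were left without WT replicate 1 or any KO library, and 4 higher calls without KO replicate 1. Lipid genes had 15 lower and 10 higher of 100, an order that turned to 10 and 12 under upper-quartile scaling. Ptgs2, the inducible cyclooxygenase that starts prostaglandin synthesis, was lower (-1.59), as were the sphingomyelin synthase Sgms2 (-2.51) and the acyltransferase Gpat3 (-2.58), and the cholesterol exporter Abcg1 (0.72) and the lipase Mgll (1.28) were higher. The lower lipid genes numbered 6 to 8 without WT replicate 1, WT replicate 3, KO replicate 2 or KO replicate 3.

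Genes of cell death had 14 lower (17.9%) and 6 higher (7.69%, against 5.89% of all tested genes) of 78. The higher were 11 with the block. Plk2, a kinase induced by stress, measured 138, 136 and 133 CPM in WT and 82.2, 62.8 and 66.2 CPM in KO (log2 fold change -0.94 ± 0.09, adjusted p = 1.77e-06), and KO lay below WT in every library. The death ligand Fasl (-0.75) and the BCL-2 relative Bcl2a1d (-0.97), whose reads can be split with near-identical copies, were lower. Inflammasome and necroptosis genes were among the higher, with Casp1 (1.07), its adaptor Pycard (0.65) and Ripk3 (0.56). Ubiquitin ligases and their partners had 13 lower (13.1%) and 7 higher (7.07%) of 99, against 9.04% and 5.89% of all tested genes. Cblb, the ligase that restrains CD28 signalling, measured 246, 209 and 231 CPM in WT and 56.6, 56.2 and 60.2 CPM in KO (log2 fold change -1.99 ± 0.08, adjusted p = 1.44e-11), and Itch (-0.29) with its adaptor Ndfip1 (-0.25) was lower, while Rnf128, the anergy ligase GRAIL, was higher (1.18). The groups of Cblb were far apart. Leaving out KO replicate 2 left 7 lower ligases, leaving out KO replicate 3 left 8 lower and 3 higher, and leaving out WT replicate 1 left 4 higher.

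Protein and RNA production differed by class. No translation factor of 64 was called. With the block 1 was lower and 1 higher, without KO replicate 1 there was 1 lower, in the activated libraries alone 4 were lower and 4 higher, and in those libraries with the block 13 were lower and 14 higher. In the fit of all 12 libraries 1 of 106 splicing and RNA-binding genes was lower (0.943%) and 4 were higher (3.77%). Of 45 histone genes 1 was called in each direction (2.22% each), and neither histone count held throughout. No histone gene was lower without WT replicate 2, WT replicate 3 or any KO library, and none higher without WT replicate 1 or KO replicate 2. The higher RNA-binding genes included Mbnl1, a regulator of splicing, at 446, 550.0 and 503 CPM in WT and 702, 780.0 and 845 CPM in KO (log2 fold change 0.63 ± 0.08, adjusted p = 3.61e-05), and its relative Mbnl2 (0.41). Every KO library of Mbnl1 exceeded the WT libraries. Of 89 genes of the secretory pathway 8 were lower (8.99%, close to the 9.04% of all tested genes) and 3 higher (3.37%, and 5 genes with the block). The unfolded protein response factor Xbp1 (-0.46) and its target Edem1 (-0.61) were lower. Of 68 chaperones 4 were lower (5.88%) and none higher. The secretory class had 5 lower genes without WT replicate 1 or KO replicate 2, 4 without KO replicate 3, and 1 higher without WT replicate 2, KO replicate 2 or KO replicate 3, and 2 chaperones were lower without WT replicate 2 or any KO library. Among 31 noncoding genes 2 were lower (6.45%) and 5 higher (16.1%, against 5.89% of all tested genes), and 2 or 3 of the higher calls were left when any single library was left out. Gm19585, a long noncoding RNA that RefSeq places near Satb1, measured 47.3, 36.6 and 35.8 CPM in WT and 2.68, 2.03 and 1.76 CPM in KO (log2 fold change -4.19 ± 0.25, adjusted p = 4.82e-08), lower like its neighbour, and whether the counting used strand is not given in the sources used here. The host gene of the miR-17 cluster, Mir17hg (0.61), and Malat1 (0.45) were higher, calls that were not held without both replicate 1 libraries.

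Grouping genes by the letters of their symbols, without regard to function, gave 208 families of at least 8 tested members. The largest shares lower were in the Dusp phosphatases (9 of 17, 52.9%), the Dock exchange factors (4 of 8, 50.0%), the myotubularins Mtmr (4 of 10, 40.0%), the myosins Myo (6 of 15, 40.0%), the O-glycan transferases Galnt (4 of 11, 36.4%), and the genes whose symbol starts with C and a digit (5 of 15, 33.3%), a name that joins unrelated genes. None of the Dusp, Dock and Myo members was called higher. The largest shares higher were in the Gimap genes of lymphocytes (5 of 9, 55.6%), the interferon-induced GTPases Gbp (5 of 11, 45.5%), the Tcf factors (3 of 8, 37.5%), the collagens (3 of 10, 30.0%), the tetraspanins (3 of 11, 27.3%) and the Camk kinases (2 of 8, 25%, tied with others). The 5 higher Gimap genes were the GTPases Gimap1, Gimap3, Gimap4 and Gimap5 and the opposite-strand transcript Gimap1os, which is not a GTPase. Gimap and Gbp genes lie in clusters of similar copies, among which reads can be split, and their counts are uncertain for that reason. These shares are the extremes of a ranking and read against 9.04% and 5.89% of all tested genes.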

How the data were processed

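RNA-seq counts per gene symbol were deposited by the authors as whole numbers. Per the labels, RNA was extracted with the Quick-RNA Microprep kit, libraries were made with the NEBNext Ultra II RNA kit and the genome build was mm10, credited to the submitters' processing notes. The aligner, the counter, the annotation and the use of strand are not given in the sources used here, so reads of antisense, overlapping or near-identical genes may be shared. Rows without a symbol (1314 of 27179; 0.128 to 0.147% of the counts of an activated library) were left out. The 6 activated and 6 naive libraries were fitted together in edgeR 4.0.16 (TMM scaling, filterByExpr, robust quasi-likelihood test, no replicate block), with Benjamini-Hochberg adjustment over 11980 genes and a threshold of 0.05. Exact permutation of 3 against 3 libraries cannot go below p = 0.1, so no gene was tested that way. The ATAC-seq table was deposited by the authors with counts per site, log2 concentrations and a log2 fold, and p-values with an FDR. Its log2 fold equals the difference of unscaled mean counts.

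The gene members, classes and lists were chosen with earlier results of these data known, so classes carry counts and medians but no test. The named genes were Prkaca, the 15 largest rises and the 15 largest falls among called genes whose genotypes did not overlap and whose higher mean was 5 CPM or more (left out were sex-linked genes, antigen receptor segments, gene models without a name and the lists of IL-12 signalling and CREB genes), up to 4 called members of each class by smallest p, and marker genes of at least 5 CPM. Other genes were named after their values were seen. Deviations from the group means correlated at 0.557, 0.28 and 0.236 between same-numbered activated WT and KO libraries. Pairs of unlike number gave -0.395 to 0.254, the highest of these between WT replicate 3 and KO replicate 2. These values set replicate 1 apart but do not match replicates 2 and 3 by number, and no label states a pairing. The number was used as a block only in alternative fits, so calls, standard errors and p-values of the main fit ignore any pairing. RefSeq promoters matched 863 of the 1083 lower and 9352 of all tested genes. On simulated counts for 11821 genes of the activated comparison, the test recovered 68.2% of 66 genes changed by 0.5 on the log2 scale, 100% of 67 changed by 1 and 100% of 67 changed by 2. The changed genes were drawn from those above 5 CPM in activated WT, and no replicate effect was simulated. Recovery at lower levels was not measured. Alternatives were RLE and upper-quartile scaling, no filter or a filter of 5 CPM in 3 libraries, DESeq2 1.42.0, limma 3.58.1 (voom), the replicate block, the activated libraries alone, stricter thresholds, leaving out each library, and, added after seeing the data, the activated libraries alone with the block and all without both replicate 1 libraries. Some genes and 1 class are not reported here.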

Additional observations from a re-analysis of the deposited data

Results flagged for a closer look

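Among the 15 largest falls and 15 largest rises, 12 genes passed the interaction test of edgeR's quasi-likelihood fit over 12 libraries. Values are the log2 difference of activated minus naive, ± the approximate SE defined above, with n = 3 per group. The genes were chosen by their activated difference, which is a part of the interaction. Passing and the sign of the value were thus in part set by the choice. Of all 220 tested genes that the naming rule picked, 93 passed the interaction test, and many of the 220 were likewise picked by their activated difference. The values below are those of the 12. A gene that did not pass is not thereby unchanged between the states. Il3, Zdbf2 and Nid1 had no counts in naive cells, with interaction SEs of 11250, 20570 and 5425, so the test could not decide for them. Ccn1 and Penk had almost none. Prkaca was already lower in naive KO cells, and its interaction value was -1.58 ± 0.29 (adjusted p = 0.00286). Other genes at similar levels in, or near absent from, both naive genotypes gave negative values: Ramp3 -6.33 ± 0.32 (adjusted p = 1.49e-09), Ntrk3 -5.27 ± 0.43 (adjusted p = 3.02e-06), Tent5a -4.66 ± 0.26 (adjusted p = 1.77e-07), Klf4 -3.48 ± 0.40 (adjusted p = 3.6e-05) and Perp -7.41 ± 1.78 (adjusted p = 0.0291). Perp had almost no counts in naive cells.

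Among the genes higher in KO, the secreted protein Olfml2a gave 4.47 ± 1.00 (adjusted p = 0.0148). Its activated difference was 2.28, and the rest came from a naive difference of -2.19 at 0.222 CPM in WT and 0.0384 CPM in KO, near absence. The kinesin Kifc3 gave 2.29 ± 0.45 (adjusted p = 0.00608). Genes that naive cells carry at high levels gave positive values too: Pdk2 2.14 ± 0.22 (adjusted p = 1.03e-05), Slamf6 1.72 ± 0.30 (adjusted p = 0.00957), Ltb 1.5 ± 0.14 (adjusted p = 5.88e-06) and Art2b 1.44 ± 0.25 (adjusted p = 0.00164). For each of these 4 genes the activated KO libraries lay between the activated WT libraries and the naive range or within it. Art2b has a near-identical copy among which reads can be split.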

How the results depend on the processing

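Of the 189 named genes past the test, 163 kept their call and direction in all their alternatives, 26 lost it in at least 1, and none reversed (2906 of 3014 alternative values on the same side, 108 not). Of the 1083 lower and 706 higher genes, 511 and 235 were called in all 16 alternatives. The 6 activated libraries alone called 1068 higher genes, and with the replicate block 2132 lower and 1776 higher, against 1209 and 869 for the replicate block in the shared fit, which moved 12 of 84 class counts by over 1.5 times (given beside the classes) and none of the counts over all genes. Without both replicate 1 libraries 704 were lower and 380 higher. An adjusted p under 0.01 left 640 and 327, and an absolute log2 fold change of at least 1 left 259 and 177. Leaving out each library in turn gave 724 to 873 lower and 427 to 520 higher genes (456 without KO replicate 2, 427 without KO replicate 3) and 290 to 402 interaction genes (290 without KO replicate 2). At a deposited FDR under 0.01 there were 3047 lower and 210 higher sites, and edgeR called 21287 and 16063, or 8113 and 2310 at an absolute log2 fold of at least 1. Of 387 lower genes with a less open site 13 were left, and of 25 higher genes with a more open site 2, when sites had to lie within 1 kb of the start, while with edgeR's sites there were 867 and 581 (545 and 107 at that fold). Of 1344 class counts under the alternatives, 290 moved by over 1.5 times. The cause of these shifts was not tested, beyond the fewer libraries or the stricter limits by which some were made. Depth limits genes of few counts, where 3 counts are 0.236 to 0.278 CPM. Of changes of 0.5 on the log2 scale, the simulated test recovered 68.2% among genes above 5 CPM in activated WT. Depth was not varied in that simulation.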

Other observations

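Of 346 tested long noncoding genes 8 were lower (2.31%) and 28 higher (8.09%), with a median log2 difference of 0.22, while of 11113 protein-coding genes 9.51% were lower and 5.95% higher, with a median of 0.01. Level was not matched between these types. Genes of any type at 1 to 10 CPM in activated libraries were 6.7% lower and 8.29% higher, with a median of 0.12. Those under 1 CPM were 2.14% lower and 2.99% higher, with a median of 0.22. Genes near absent from naive cells, with a mean under 1 CPM over the 6 naive libraries, were called at 13.3% lower (165 of 1238) and 10% higher (124). Over all tested genes the shares were 9.04% and 5.89%. Genes that low in naive cells pass the filter on low counts mainly through activated libraries, which bears on their shares. The share lower was also 13.3% (294 of 2213) among genes of 100 CPM and over in naive cells, with 5.65% higher.

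The calls were spread unevenly over the chromosomes. On chromosome 10, 12.7% of tested genes were lower and 3.99% higher, on chromosome 8, 4.75% and 7.13%, and on chromosome 17, which carries the major histocompatibility complex, 5.25% and 8.44%. These values are descriptions without a test.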
